A study of Homo sapiens with 9 samples.

Results

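TC-32 cells that carry introduced ETS1 at the lower of the study's levels (ETS1-Low) were compared across all genes with TC-32 cells that carry a red fluorescent protein (RFP) instead. The 6 libraries, 3 of each group, were chosen by their sample titles from 9 RNA-seq libraries in all, and the other 3 are labelled ETS1-High. The question was what the transcription factor ETS1 does to expression while the fusion oncoprotein EWSR1::FLI1 is present. TC-32 is an established human line of Ewing sarcoma with this fusion, and all groups shared it, together with a lentiviral pLOC vector, puromycin selection and single cell sorting, per the labels' protocols. RFP cells carried the vector with RFP, and the ETS1-Low and ETS1-High cells with a synthetic human ETS1 cDNA. Per the series' design text, the ETS1 cells are single cell clones with a lower ETS1 level (ETS1-Low) or a level near that after depletion of the fusion (ETS1-High). Whether the RFP cells are a clone or a pool, the number of clones per group, the promoter of the vector and the origin of the 3 libraries of a group are not given in the sources used here. The p-values therefore measure the spread between these libraries, which may be technical, and an effect of ETS1 and a property of the clone cannot be told apart.

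ETS1 is a transcription factor of the ETS family, whose members bind DNA at sites built around the letters GGAA. EWSR1::FLI1 joins part of EWSR1 to the ETS domain of FLI1, binds such sites and repeats of them, and keeps Ewing sarcoma cells in a poorly differentiated state in which parts of neural and mesenchymal programmes coexist. Interferon-stimulated genes are switched on by type I and type II interferon through STAT and IRF factors that bind the interferon-stimulated response element, and their products block viral replication and raise antigen presentation on MHC class I. NOS1 is the neuronal nitric oxide synthase, whose product activates soluble guanylate cyclase and raises cyclic GMP.

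The totals of expected counts lay between 43930328 and 46256560 in RFP and between 39484704 and 46654734 in ETS1-Low. Mitochondrially encoded genes took 6.02% to 6.26% of the counts in RFP and 7.10% to 7.63% in ETS1-Low, and the 10 most abundant genes took 7.11% to 7.32% and 8.79% to 9.22%. Of 17235 genes that passed the filter on low counts, 12773 (74.1%) were called at an adjusted p under 0.05 in the edgeR quasi-likelihood test, 6537 higher (37.9%) and 6236 lower (36.2%) in ETS1-Low. At a size of 2-fold or more, 3555 (20.6%) were called, 1459 higher (8.47%) and 2096 lower (12.2%). The libraries of the groups did not overlap in 13098 genes (76%). The median log2 fold change over all genes was 0.01, with quartiles of -0.42 and 0.40. Among the calls, 51.2% were higher in counts scaled by TMM. With limma on the log2(FPKM + 1) scale 41.6% were, with 3982 higher and 5592 lower among genes of at least 1 FPKM on average. Without that filter 36.5% were, with 4223 higher and 7340 lower. The share called was 80.2% among protein-coding genes and 81.9% among genes with a mean log2 CPM above 1, so a share from 74.1% to 81.9% in a gene list is the background. The lists are described by the direction and size of their changes. Levels are counts scaled to library size by TMM (CPM), as mean ± SD of n = 3 libraries. Fold changes are edgeR estimates on the log2 scale with their standard error (SE). Every gene said to rise or fall was called by edgeR with Benjamini-Hochberg adjustment. Where every library of a group held at most 3 counts, the ratio of the pooled counts is given with an exact Poisson interval, and where it held none, a lower bound from a floor of 3 counts per library. These intervals and bounds cover counting error only, and the labels name no molecular identifiers. The words "shared reads" mark genes whose expected counts were not whole in at least 5 of the 9 libraries, so that reads were divided with other genes, and "antisense overlap" marks genes with exons over a gene on the other strand. The values of both kinds are uncertain, the latter because the use of strand in counting is not given in the sources used here. They number 57 and 95 of the 289 genes that the naming rule chose.

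ETS1 (ENSG00000134954.14, chromosome 11, 128458761 to 128587558, minus strand on GRCh38, protein coding) was examined first as the introduced gene. It had 1.81, 2.03 and 2.15 CPM in the RFP libraries and 10.6, 10.8 and 10.3 CPM in the ETS1-Low libraries. All ETS1-Low libraries lay above all RFP libraries, and the log2 difference was 2.40 ± 0.09 (SE, edgeR adjusted p 4.29e-29). Per length, this was 0.53, 0.56 and 0.68 FPKM in the RFP libraries and 2.69, 2.94 and 2.7 FPKM in the ETS1-Low libraries. ETS1-High had 19.1 ± 0.806 CPM, so the ETS1-Low cells stood between the other groups. The counts do not separate the vector copy from the endogenous gene. Among the 21 ETS family genes tested, 10 were called higher, 5 lower and 6 in neither direction, with a median log2 fold change of 0.17. The 10 include ETS1 itself, whose rise was set by the design. ETV7, an interferon-inducible ETS repressor, rose from 0.0347 ± 0.0239 to 1.1 ± 0.238 CPM (31.6-fold higher, 95% counting interval 13.5 to 97.3). GABPA, the DNA-binding subunit of GA-binding protein, rose from 54.8 ± 2.36 to 74.8 ± 4.24 CPM (log2 fold change 0.45, SE 0.04, shared reads, antisense overlap). ELK3, a ternary complex factor that acts with SRF, fell from 46.4 ± 1.67 to 26.1 ± 0.666 CPM (log2 fold change -0.83, SE 0.04, antisense overlap). FLI1, the gene at the 3′ end of the fusion, had 51.9 ± 1.26 CPM in RFP and 60.6 ± 0.994 CPM in ETS1-Low (log2 fold change 0.22, SE 0.03, antisense overlap). EWSR1 had 293 ± 5.27 CPM in RFP and 358 ± 2.44 CPM in ETS1-Low (log2 fold change 0.29, SE 0.03, shared reads, antisense overlap). Gene-level counts do not separate the fusion transcript from those of the unrearranged genes.

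The identity of the cells was checked against Ewing sarcoma markers. All 12 tested markers were called higher in ETS1-Low (median 0.31, or 0.18 on the filtered log2(FPKM + 1) scale). CD99, the surface glycoprotein used in diagnosis, rose from 166 ± 3.67 to 243 ± 1.31 CPM (log2 fold change 0.55, SE 0.03). LIPI, a lipase of the cancer-testis class, rose from 19.4 ± 1.31 to 61.2 ± 1.45 CPM (log2 fold change 1.66, SE 0.04). CCND1, cyclin D1, rose from 1548 ± 42.4 to 2518 ± 20.3 CPM (log2 fold change 0.70, SE 0.03, shared reads, antisense overlap). KCNAB3, a potassium channel subunit, rose from 14.7 ± 0.984 to 26.3 ± 1.91 CPM (log2 fold change 0.85, SE 0.06). The median log2 fold change of neighbours within 10 Mb was 0.52 for CD99 and 0.44 for CCND1. It was 0.05 for LIPI and 0.03 for KCNAB3. CD99 thus rose about as much as its region, and the part of the region in these rises was not tested. Of 52 genes that EWSR1::FLI1 is known to activate, 34 were called higher, 16 lower and 2 in neither direction (median 0.30, or 0.18 on the filtered log2(FPKM + 1) scale). FCGRT, the neonatal Fc receptor, rose from 39.1 ± 2.06 to 186 ± 1.54 CPM (log2 fold change 2.25, SE 0.03). KDSR, an enzyme of sphingolipid synthesis, rose from 109 ± 4.32 to 431 ± 7.65 CPM (log2 fold change 1.98, SE 0.03, shared reads). RBM11, a splicing regulator, rose from 50.3 ± 1.93 to 181 ± 4.37 CPM (log2 fold change 1.85, SE 0.03). Of 43 genes that the fusion is known to repress, 15 were called higher, 23 lower and 5 in neither direction (median -0.13). The 15 include ETS1, the introduced gene. TGFBR2, the type II TGF-beta receptor, rose from 5.9 ± 0.442 to 28.9 ± 1.08 CPM (log2 fold change 2.29, SE 0.06). CAVIN1, a caveola coat protein, rose from 81.3 ± 0.872 to 197 ± 4.6 CPM (log2 fold change 1.27, SE 0.03, shared reads).

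NOS1 (ENSG00000089250.18, chromosome 12, 117208142 to 117452170, minus strand, protein coding) was singled out with earlier results of these data in view, so its values are a description. It had 0.0208, 0.0213 and 0 CPM in the RFP libraries and 55.3, 56.6 and 57.4 CPM in the ETS1-Low libraries. The RFP libraries held 1, 1 and 0 counts and the ETS1-Low libraries 2092, 2545 and 2349, which is a ratio of 4057-fold higher, 95% counting interval 1123 to 33498. In ETS1-High the level was 0.736, 1.11 and 1.01 CPM, above RFP and below ETS1-Low in every library. Per length, NOS1 had 0.010, 0 and 0 FPKM in the RFP libraries and 4.42, 4.55 and 4.63 FPKM in the ETS1-Low libraries. Of the 32 tested genes of nitric oxide and cyclic GMP signalling, 16 were called higher, 15 lower and 1 in neither direction, so the list as a whole had no common direction. Upstream, DDAH1, which degrades an inhibitor of nitric oxide synthases, rose from 33.3 ± 0.962 to 99.2 ± 4.36 CPM (log2 fold change 1.57, SE 0.04, shared reads). CALM3, a calmodulin gene whose protein is a cofactor of NOS1, rose from 267 ± 3.35 to 557 ± 4.02 CPM (log2 fold change 1.06, SE 0.03, shared reads, antisense overlap). PDE1A, a calmodulin-dependent phosphodiesterase that breaks down cyclic GMP, rose from 0.236 ± 0.0389 to 15.9 ± 0.932 CPM (log2 fold change 6.06, SE 0.14).

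The largest rises spread over several gene classes. GALNT5 (ENSG00000136542.8, chromosome 2, 157257705 to 157318491, plus strand), an enzyme that starts O-linked glycosylation, had 0.686, 0.64 and 0.512 CPM in the RFP libraries and 341, 347 and 340.2 CPM in the ETS1-Low libraries (log2 fold change 9.12, SE 0.06). TNFAIP6 (ENSG00000123610.4, chromosome 2, 151357592 to 151380046, plus strand), a secreted hyaluronan-binding protein, had 0.104, 0.0427 and 0.102 CPM in the RFP libraries and 43.3, 42 and 43.4 CPM in the ETS1-Low libraries (log2 fold change 8.96, SE 0.11). SRGN, the core protein of the granule proteoglycan serglycin, had 0.0623, 0.235 and 0.143 CPM in the RFP libraries and 45.5, 46.6 and 41.9 CPM in the ETS1-Low libraries (log2 fold change 8.23, SE 0.11). In all of these the RFP libraries were near 0 and the 3 ETS1-Low libraries lay close together. IL18, a cytokine of the interleukin-1 family, rose from 0.0139 ± 0.024 to 4.95 ± 0.238 CPM (356-fold higher, 95% counting interval 98.6 to 2939.9). RNF128, an E3 ubiquitin ligase, rose from 0.0205 ± 0.0355 to 11.3 ± 0.516 CPM (541-fold higher, 95% counting interval 185 to 2623). CRYBG1, an actin-associated protein, rose from 0.0138 ± 0.0119 to 6.35 ± 0.203 CPM (457-fold higher, 95% counting interval 126 to 3773, antisense overlap). ISL1, a LIM homeodomain factor of motor neurons and heart progenitors, rose from 0.0345 ± 0.0433 to 4.93 ± 0.297 CPM (log2 fold change 7.03, SE 0.25). Its neighbours within 10 Mb on either side had a median log2 fold change of -0.42, so the gene moved against its region. SLC16A11, a monocarboxylate transporter of the solute carrier family, rose from 0.0422 ± 0.0374 to 5.93 ± 0.375 CPM (log2 fold change 7.06, SE 0.25). NUDT16, an RNA-decapping hydrolase, rose from 0.0485 ± 0.031 to 5.72 ± 0.311 CPM (log2 fold change 6.80, SE 0.25). DPP6, an auxiliary subunit of Kv4 potassium channels, rose from 0.315 ± 0.173 to 21.8 ± 0.455 CPM (log2 fold change 6.11, SE 0.13, antisense overlap). NRK, a kinase of the NIK family, rose from 0.0416 ± 0.0204 to 11 ± 0.36 CPM (263-fold higher, 95% counting interval 121 to 717). TGM3, a transglutaminase of skin and hair, rose from 0.153 ± 0.0264 to 12.8 ± 0.944 CPM (log2 fold change 6.37, SE 0.16). FLT3LG, the ligand of the FLT3 receptor, rose from 1.68 ± 0.232 to 172 ± 4.99 CPM (log2 fold change 6.68, SE 0.06, shared reads). ENSG00000273189, a long noncoding RNA gene, rose from 0.026 ± 0.0225 to 7.45 ± 0.897 CPM (268-fold higher, 95% counting interval 105 to 983, shared reads). It lies over FLT3LG on the same strand of chromosome 19 (49474586 to 49487637 against 49474207 to 49486231), so reads of the pair cannot be told apart here.

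**Figure D1:**
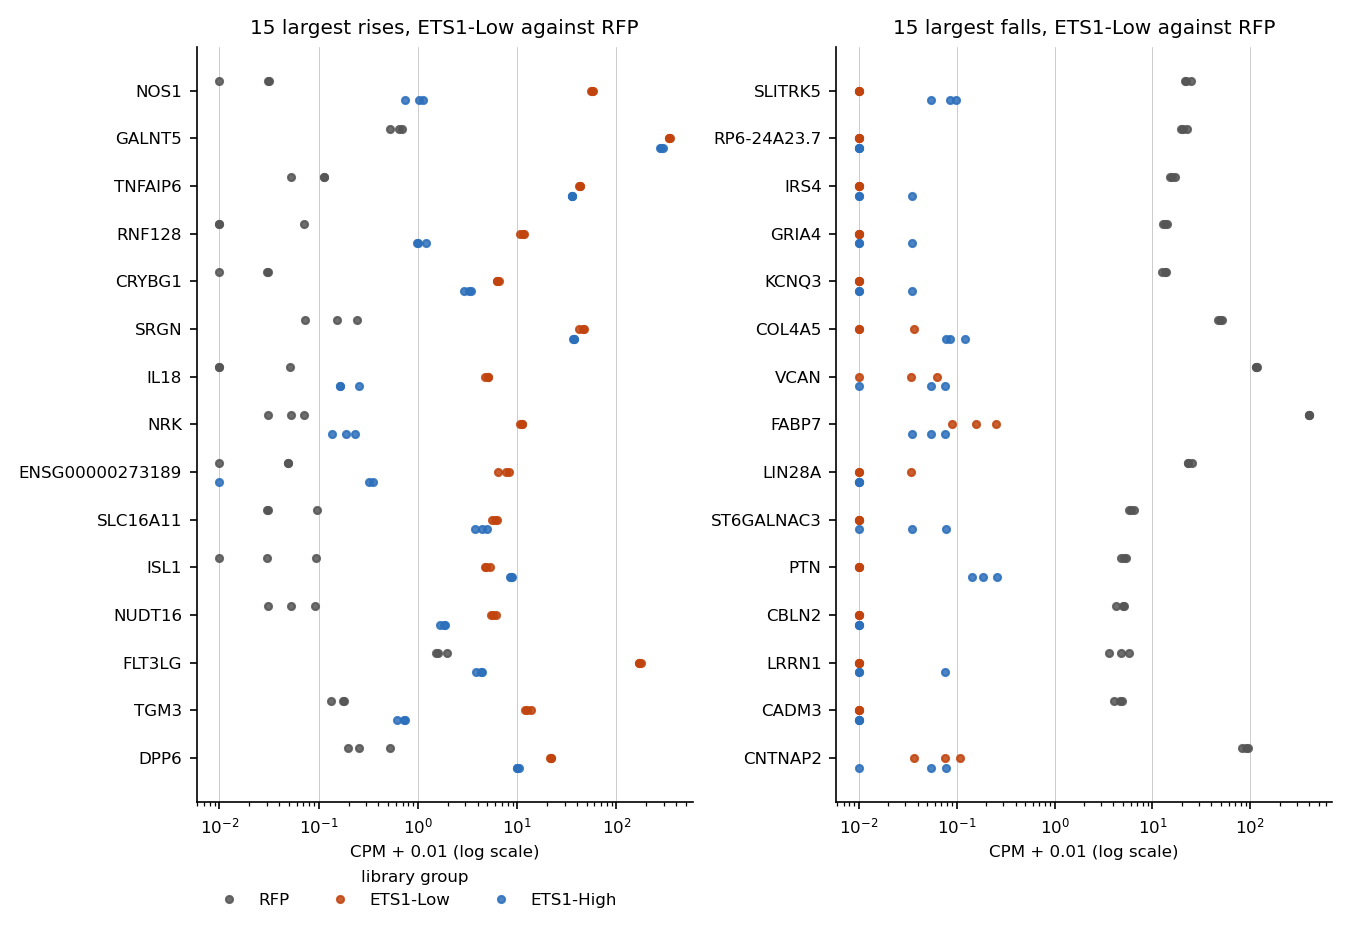
Level of each of the 15 genes with the largest rises (left) and the largest falls (right) in ETS1-Low against RFP, as CPM + 0.01 on a log axis, with one point for each of the 3 libraries of RFP, ETS1-Low and ETS1-High. Points at 0.01 are libraries without a count, and in every one of these genes the RFP and ETS1-Low libraries are separate, as the naming rule required.

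Among the largest falls, several genes ended without a single count in ETS1-Low. SLITRK5 (ENSG00000165300.7, chromosome 13, 87671371 to 87696272, plus strand), a synaptic adhesion protein with leucine-rich repeats, had 21.3, 24.5 and 21.9 CPM in the RFP libraries and 0, 0 and 0 CPM in the ETS1-Low libraries (at least 309-fold lower, antisense overlap). GRIA4, a subunit of AMPA glutamate receptors, had 14.2, 13.5 and 12.8 CPM in the RFP libraries and 0, 0 and 0 CPM in the ETS1-Low libraries (at least 184-fold lower). KCNQ3, a subunit of the M-type potassium channel, had 13.5, 13.7 and 12.6 CPM in the RFP libraries and 0, 0 and 0 CPM in the ETS1-Low libraries (at least 182-fold lower). None of the ETS1-Low libraries held a count of these genes. IRS4, an insulin receptor substrate, fell from 16.1 ± 0.829 to 0 CPM (at least 219.7-fold lower, antisense overlap). PTN, the growth factor pleiotrophin, fell from 5.06 ± 0.31 to 0 CPM (at least 69.3-fold lower). CBLN2, a synapse organiser, fell from 4.79 ± 0.442 to 0 CPM (at least 65.5-fold lower). LRRN1, a neuronal leucine-rich repeat protein, fell from 4.71 ± 1.07 to 0 CPM (at least 64.4-fold lower, antisense overlap). CADM3, an adhesion molecule of nerve cells, fell from 4.54 ± 0.409 to 0 CPM (at least 62-fold lower, antisense overlap). ST6GALNAC3, a sialyltransferase, fell from 6.09 ± 0.368 to 0 CPM (at least 83.4-fold lower). RP6-24A23.7, whose identifier has no position in the annotation used here, fell from 20.8 ± 1.4 to 0 CPM (at least 284-fold lower). The most abundant gene of this set in RFP was FABP7 (ENSG00000164434.11, chromosome 6, 122779716 to 122784074, plus strand), the brain fatty acid-binding protein of radial glia, with 403, 399 and 399 CPM in the RFP libraries and 0.0793, 0.245 and 0.146 CPM in the ETS1-Low libraries (log2 fold change -11.25, SE 0.07). VCAN, the chondroitin sulphate proteoglycan versican, had 116, 114 and 113 CPM in the RFP libraries and 0.0529, 0 and 0.0244 CPM in the ETS1-Low libraries (4734-fold lower, 95% counting interval 1619.9 to 22956, antisense overlap). CNTNAP2, a neurexin family adhesion protein, fell from 88.9 ± 7.03 to 0.0636 ± 0.0357 CPM (log2 fold change -10.36, SE 0.14). COL4A5, a type IV collagen chain, fell from 49.1 ± 2.02 to 0.00882 ± 0.0153 CPM (6071-fold lower, 95% counting interval 1089.6 to 239780.0). The plot of the largest rises and falls shows that ETS1-High was also far below RFP in these genes.

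Among genes changed at least 2-fold, the 10 with the highest mean CPM were also named. ALDH1A1 (ENSG00000165092.12, chromosome 9, 72900671 to 73080442, minus strand), which makes retinoic acid from retinal, had 47, 44.4 and 45.4 CPM in the RFP libraries and 2402, 2333 and 2333 CPM in the ETS1-Low libraries (log2 fold change 5.69, SE 0.04, shared reads). ANXA1, a phospholipid-binding annexin, rose from 1225 ± 8.99 to 2628 ± 44.6 CPM (log2 fold change 1.10, SE 0.03, shared reads). Both lie on chromosome 9, where the median log2 fold change within 10 Mb was -0.59, so both rose against their region. IGFBP5, an insulin-like growth factor binding protein, had 228, 229 and 235 CPM in the RFP libraries and 4228, 4303 and 4310.4 CPM in the ETS1-Low libraries (log2 fold change 4.21, SE 0.04, shared reads, antisense overlap). CXCL14, a chemokine, rose from 183 ± 9.0 to 1398 ± 16.7 CPM (log2 fold change 2.93, SE 0.03, shared reads, antisense overlap). PTGER3, a prostaglandin E2 receptor, rose from 363 ± 12.7 to 871 ± 9.39 CPM (log2 fold change 1.26, SE 0.03). LRATD2 rose from 375 ± 4.67 to 756 ± 1.68 CPM (log2 fold change 1.01, SE 0.03, shared reads, antisense overlap). RPL28, a ribosomal protein, rose from 373 ± 11.7 to 755 ± 8.59 CPM (log2 fold change 1.02, SE 0.03, shared reads). The set also held 3 falls. BDP1, a subunit of the RNA polymerase III factor TFIIIB, fell from 1307 ± 43 to 429.6 ± 7.73 CPM (log2 fold change -1.61, SE 0.03, shared reads). MAN2A1, a Golgi mannosidase, fell from 735 ± 11.8 to 299 ± 4.08 CPM (log2 fold change -1.30, SE 0.03). CBX5, heterochromatin protein 1 alpha, fell from 681 ± 15.5 to 299 ± 2.83 CPM (log2 fold change -1.19, SE 0.03, shared reads).

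Interferon-stimulated genes were higher in ETS1-Low as a group. Of 55 tested effectors, 47 were called higher, 5 lower and 3 in neither direction, and 34 were at least 2-fold higher. The median was 1.35, against 0.01 over all genes, and 1.22 after the median of each gene's chromosome was subtracted. BST2, tetherin, which holds budding virions at the cell surface, had 1.39, 1.51 and 1.68 CPM in the RFP libraries and 78.9, 79.2 and 78.3 CPM in the ETS1-Low libraries (log2 fold change 5.68, SE 0.06). OAS3, an oligoadenylate synthetase that activates RNase L, had 8.58, 9.86 and 9.79 CPM in the RFP libraries and 70.1, 71.1 and 73.8 CPM in the ETS1-Low libraries (log2 fold change 2.93, SE 0.05). TRIM22, an antiviral ubiquitin ligase, rose from 4.64 ± 0.252 to 38.4 ± 1.31 CPM (log2 fold change 3.05, SE 0.05). PARP14, an ADP-ribosyltransferase, rose from 13.8 ± 0.539 to 67 ± 1.6 CPM (log2 fold change 2.28, SE 0.04). The 5 effectors called lower were IFI44L, GBP4, IFITM2, HERC5 and IFIT1, named here after their values were seen because they are so few. IFI44L, with 2 counts in the ETS1-Low group, was 30.6-fold lower (counting interval 8.47 to 253), and the log2 fold changes of the others ran from -1.51 (GBP4) to -0.62 (IFIT1). The rise was therefore not shared by every member.

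The promoters of 3 of these effectors are shown because each holds the letters GAAA followed, after any 2 bases, by GAAA, a core of the interferon-stimulated response element, and that of NOS1 because it carried the largest rise. The sequences are the 250 bases before the RefSeq start of each gene on GRCh38.p14, read 5′ to 3′ on the strand of the gene, with matches on either strand in capitals. They lie at chr19:17405631-17405880 on the minus strand (BST2), chr12:112938224-112938473 on the plus strand (OAS3), chr3:122680589-122680838 on the plus strand (PARP14) and chr12:117309411-117309660 on the minus strand (NOS1). The start of NOS1 in this table lies inside the span of the gene given above. In NOS1 the capitals mark the ETS core letters GGAA, read TTCC on the other strand.
BST2: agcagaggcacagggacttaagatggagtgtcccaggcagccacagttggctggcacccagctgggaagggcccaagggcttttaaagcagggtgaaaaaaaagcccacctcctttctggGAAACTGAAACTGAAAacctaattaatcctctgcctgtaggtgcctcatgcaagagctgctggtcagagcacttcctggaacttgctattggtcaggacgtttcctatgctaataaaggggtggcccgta
OAS3: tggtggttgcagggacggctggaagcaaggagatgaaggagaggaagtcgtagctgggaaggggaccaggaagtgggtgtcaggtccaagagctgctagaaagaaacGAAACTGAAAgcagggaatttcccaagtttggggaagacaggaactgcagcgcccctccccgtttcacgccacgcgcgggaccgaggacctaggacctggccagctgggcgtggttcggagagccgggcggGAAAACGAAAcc
PARP14: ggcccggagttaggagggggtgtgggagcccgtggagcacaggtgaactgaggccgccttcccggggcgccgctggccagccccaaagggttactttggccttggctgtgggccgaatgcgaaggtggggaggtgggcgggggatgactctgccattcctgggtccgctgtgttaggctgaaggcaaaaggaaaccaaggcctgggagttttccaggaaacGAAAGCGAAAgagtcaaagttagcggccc
NOS1: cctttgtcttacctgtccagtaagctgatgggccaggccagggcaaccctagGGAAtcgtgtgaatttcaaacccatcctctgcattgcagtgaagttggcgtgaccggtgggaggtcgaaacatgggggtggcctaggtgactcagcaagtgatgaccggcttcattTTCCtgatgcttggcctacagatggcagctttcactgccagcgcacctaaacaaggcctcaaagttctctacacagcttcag
The matches begin 130 and 124 bases before the start in BST2, where they overlap, 143 and 12 bases before it in OAS3, and 29 bases before it in PARP14. Of the 45 effectors with a sequence, 24 (53.3%) held this spaced GAAA pair on either strand, and of 19 MHC class I genes 7 (36.8%) did. The share was 2.45% of the 11150 tested protein-coding genes with a sequence and 3.07% of all 27305 promoters in the table. The letters GGAA occurred in 92.6% of tested genes, so their presence in NOS1 separates it from few others. The longer ETS letters CCGGAAG occurred in 15.3% of tested genes, in 6.13% of those at least 2-fold higher, in 4.41% of those at least 2-fold lower and in 16.4% of those not called. The letters GGAAGGAA occurred in 2.91% of tested genes, in 2.82% of those at least 2-fold higher and in 3.79% of those at least 2-fold lower. They occurred in 4 of 45 interferon-stimulated effectors (8.89%), 0 of 19 MHC class I genes and 5 of 49 protocadherins (10.2%). A match describes the letters of this window only.

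The sensors upstream of interferon were mixed in direction. Of 28 tested sensors and signalling genes, 17 were called higher, 5 lower and 6 in neither direction (median 0.23, or 0.02 on the log2(FPKM + 1) scale). IFIH1, which encodes the cytosolic RNA sensor MDA5, had 0.249, 0.256 and 0.41 CPM in the RFP libraries and 16.8, 16.3 and 16 CPM in the ETS1-Low libraries (log2 fold change 5.73, SE 0.12). DHX58, which encodes LGP2 of the same family, rose from 1.15 ± 0.348 to 11.3 ± 0.381 CPM (log2 fold change 3.30, SE 0.12). TLR3, the endosomal sensor of double-stranded RNA, rose from 0.883 ± 0.0467 to 7.13 ± 0.307 CPM (log2 fold change 3.01, SE 0.12). JAK1, the kinase shared by interferon receptors, rose from 279.5 ± 8.07 to 617 ± 6.84 CPM (log2 fold change 1.14, SE 0.03, antisense overlap). The list also holds the interferon genes themselves, and 7 of its 35 measured genes stayed below the filter, 3 of them without a count in any library.

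MHC class I antigen presentation rose nearly throughout. Of 23 tested genes, 22 were called higher, 1 lower and 0 in neither direction (median 0.98, or 0.84 on the log2(FPKM + 1) scale), and the exception was CANX, the chaperone calnexin, with a log2 fold change of -0.25. PSMB8, a catalytic subunit of the immunoproteasome, had 6.46, 8.13 and 7.64 CPM in the RFP libraries and 45.5, 46 and 46.1 CPM in the ETS1-Low libraries (log2 fold change 2.63, SE 0.05, antisense overlap). PSMB9, its partner subunit, rose from 0.507 ± 0.122 to 6.63 ± 0.595 CPM (log2 fold change 3.70, SE 0.14, antisense overlap). PSME1, a subunit of the proteasome activator PA28, rose from 51.2 ± 1.87 to 113 ± 3.87 CPM (log2 fold change 1.14, SE 0.03, antisense overlap). ERAP1 and ERAP2, the aminopeptidases that trim peptides in the endoplasmic reticulum, both rose. ERAP1 went from 32.2 ± 0.767 to 103 ± 1.18 CPM (log2 fold change 1.67, SE 0.03, antisense overlap). ERAP2 went from 16.5 ± 0.47 to 46.4 ± 1.57 CPM (log2 fold change 1.49, SE 0.04). The summed FPKM of the list was 4245 to 4408 FPKM in RFP and 4976 to 5165 FPKM in ETS1-Low, with no overlap between the groups. For MHC class II, 4 genes were tested, with 2 called higher and 2 lower. Their median was -0.35, or 1.10 with at least 10 counts in every library, where the sign turns. The summed level of all 12 measured genes was 9.81 to 11.6 FPKM in RFP and 12.2 to 13.5 FPKM in ETS1-Low. The higher ones were HLA-DOB and HLA-DPB1, named after their calls were seen. HLA-DMB, a peptide exchange factor of class II loading, fell from 1.15 ± 0.434 to 0.059 ± 0.0519 CPM (log2 fold change -4.28, SE 0.51). HLA-DMA, its partner chain, fell from 0.798 ± 0.125 to 0.361 ± 0.0888 CPM (log2 fold change -1.13, SE 0.31, antisense overlap).

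**Figure D2:**
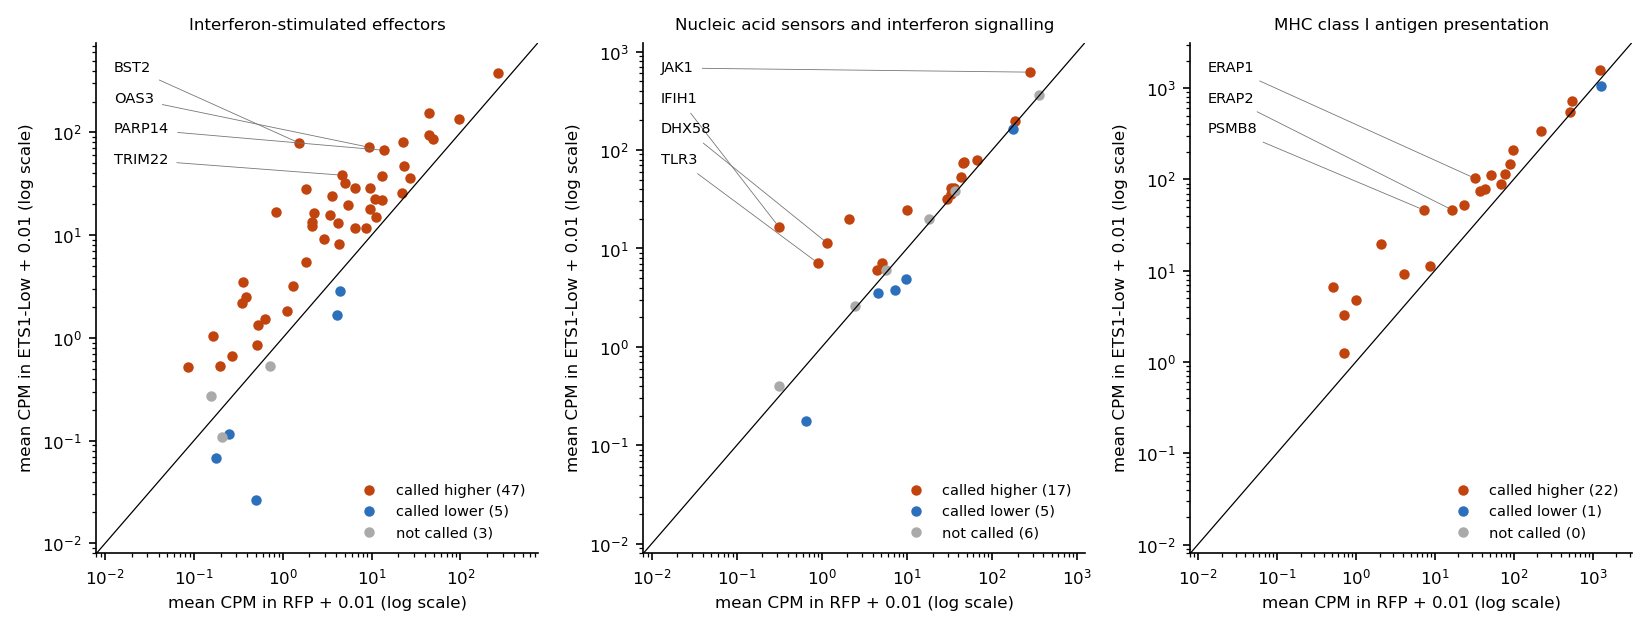
Mean CPM + 0.01 in ETS1-Low (vertical, log scale) against RFP (horizontal, log scale) for each tested gene of 3 lists, coloured by the edgeR call, with the diagonal of equal levels and the names of most of the genes the naming rule took. Most interferon-stimulated effectors (47 of 55) and MHC class I genes (22 of 23) lie above the diagonal as called higher, while most sensors lie near it.

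Inflammatory and complement genes were mixed. Of 28 tested NF-kB and cytokine genes, 12 were called higher, 7 lower and 9 in neither direction. CXCL16, a membrane-bound chemokine, rose from 2.03 ± 0.397 to 15.2 ± 0.474 CPM (log2 fold change 2.90, SE 0.09, antisense overlap). CXCL12, the ligand of CXCR4, fell from 22.8 ± 0.249 to 4.25 ± 0.303 CPM (log2 fold change -2.42, SE 0.08). Of 23 complement genes, 9 were called higher, 7 lower and 7 in neither direction. CD55, which dissolves complement convertases on cells, rose from 0.466 ± 0.0402 to 5.45 ± 0.58 CPM (log2 fold change 3.54, SE 0.17). CFD, complement factor D, rose from 2.04 ± 0.217 to 6.64 ± 0.366 CPM (log2 fold change 1.70, SE 0.11, antisense overlap). CLU, the abundant fluid-phase inhibitor clusterin, fell from 643 ± 15.7 to 101 ± 0.642 CPM (log2 fold change -2.67, SE 0.03). SERPING1, the inhibitor of C1 proteases, fell from 18.4 ± 0.356 to 6.35 ± 0.365 CPM (log2 fold change -1.54, SE 0.08). Inhibitors of the pathway thus stood among both the rises and the falls. Leukocyte markers were low in both groups: 2 of 12 passed the filter, and the summed level of all 12 was 2.1 to 3.01 FPKM in RFP and 1.41 to 2.13 FPKM in ETS1-Low. PTPRC, which marks all leukocytes, had at most 6 counts in any library, CD3E had none, and CD14 fell from 1.2 ± 0.31 to 0.203 ± 0.0222 CPM (log2 fold change -2.55, SE 0.34).

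Neuronal markers had the lowest median among the lists with at least 9 tested members. Of 9 tested, 1 was called higher, 8 lower and 0 in neither direction, with a median of -2.43. It was -1.52 on the filtered log2(FPKM + 1) scale and -0.38 with at least 10 counts in every library, where it was not the lowest. DCX, the microtubule protein doublecortin of migrating neurons, had 71.8, 78 and 71.4 CPM in the RFP libraries and 0.0793, 0.0889 and 0 CPM in the ETS1-Low libraries (log2 fold change -10.28, SE 0.12). GAP43, a protein of growing axons, had 106, 100.4 and 101 CPM in the RFP libraries and 0.106, 0.111 and 0.171 CPM in the ETS1-Low libraries (log2 fold change -9.60, SE 0.09). MAP2, a dendritic microtubule protein, fell from 5.11 ± 0.276 to 0.0968 ± 0.0224 CPM (log2 fold change -5.68, SE 0.26). TUBB3, neuronal beta-tubulin, fell from 55.6 ± 1.53 to 8.93 ± 0.253 CPM (log2 fold change -2.64, SE 0.05, shared reads). The marker called higher was NEFL, neurofilament light chain, named because it stood alone, with a log2 fold change of 1.34. In bulk libraries, fewer cells of a type and less RNA per cell cannot be told apart. The summed level of all 14 markers was 153 to 156 FPKM in RFP and 32.5 to 34.1 FPKM in ETS1-Low, and 5 of them stayed below the filter.

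Axon guidance genes were lower in most members. Of 61 tested, 11 were called higher, 40 lower and 10 in neither direction (median -0.68). Among the ligands, SEMA3A, a repellent semaphorin, had 176, 163 and 159 CPM in the RFP libraries and 42.1, 42.1 and 39 CPM in the ETS1-Low libraries (log2 fold change -2.02, SE 0.04). SLIT2, the ligand of ROBO receptors, fell from 20.6 ± 0.526 to 1.84 ± 0.15 CPM (log2 fold change -3.48, SE 0.09). EFNA5, a membrane-anchored ephrin, fell from 33 ± 1.92 to 7.53 ± 0.235 CPM (log2 fold change -2.13, SE 0.06) in a region of chromosome 5 whose median was -0.54. Among the receptors, DCC, which binds netrin, fell from 72.4 ± 1.7 to 21.4 ± 0.56 CPM (log2 fold change -1.76, SE 0.04, antisense overlap). Of 43 synaptic adhesion molecules, 13 were called higher, 26 lower and 4 in neither direction (median -0.38, or 0.01 over genes with at least 10 counts in every library), with large changes in both directions. NCAM1, the neural cell adhesion molecule CD56, had 233, 226 and 218 CPM in the RFP libraries and 45, 47.2 and 48.9 CPM in the ETS1-Low libraries (log2 fold change -2.26, SE 0.03, antisense overlap). CNTN6, a contactin, rose from 0.202 ± 0.0357 to 11.3 ± 0.254 CPM (log2 fold change 5.78, SE 0.14). LRRTM4, a postsynaptic organiser, rose from 0.271 ± 0.0363 to 16.9 ± 0.819 CPM (log2 fold change 5.94, SE 0.13).

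Ion channels and transmitter receptors held deep losses beside single gains, and the sign of their medians depends on the genes of low level. Of 25 voltage-gated calcium and sodium channel genes, 5 were called higher, 17 lower and 3 in neither direction (median -1.21, or 0.01 on the log2(FPKM + 1) scale over genes with a mean of at least 1 FPKM). CACNG4 and CACNG8, which traffic AMPA receptors, both fell. CACNG4 went from 3.22 ± 0.613 to 0.0155 ± 0.0135 CPM (199-fold lower, 95% counting interval 55.1 to 1645, antisense overlap). CACNG8 went from 31.9 ± 1.17 to 4.51 ± 0.849 CPM (log2 fold change -2.81, SE 0.08). CACNA1I, a T-type calcium channel, rose from 21.7 ± 0.667 to 91.4 ± 1.93 CPM (log2 fold change 2.08, SE 0.04). SCN2A, a neuronal sodium channel, rose from 2.79 ± 0.206 to 16.7 ± 0.377 CPM (log2 fold change 2.58, SE 0.08, shared reads). Of 42 potassium channel genes, 15 were called higher, 22 lower and 5 in neither direction (median -0.64, or 0.14 over the genes at that FPKM). KCNA2, a delayed rectifier, fell from 263 ± 5.58 to 51 ± 2.84 CPM (log2 fold change -2.36, SE 0.04). KCNH2, the hERG channel, fell from 54.9 ± 1.14 to 27.3 ± 1.52 CPM (log2 fold change -1.01, SE 0.04). KCNE4, an accessory subunit, rose from 155 ± 3.36 to 332 ± 4.81 CPM (log2 fold change 1.10, SE 0.03, shared reads). Of 44 transmitter receptor subunits, 18 were called higher, 20 lower and 6 in neither direction (median -0.23, or 0.29 over the genes at that FPKM). GRM2, a metabotropic glutamate receptor, had 47.7, 48.3 and 46.8 CPM in the RFP libraries and 193, 204 and 202 CPM in the ETS1-Low libraries (log2 fold change 2.07, SE 0.03). GRIK5, a kainate receptor subunit, rose from 0.78 ± 0.186 to 35.1 ± 0.864 CPM (log2 fold change 5.49, SE 0.09). CHRNA9, a nicotinic receptor subunit, fell from 58.2 ± 2.43 to 9.28 ± 0.751 CPM (log2 fold change -2.65, SE 0.06). Of 24 neuropeptide genes, 7 were called higher, 16 lower and 1 in neither direction (median -1.24, -0.01 with at least 10 counts in every library, -0.13 on the filtered log2(FPKM + 1) scale). NPY1R, a neuropeptide Y receptor of Ewing cells, fell from 16 ± 0.527 to 0.77 ± 0.0702 CPM (log2 fold change -4.38, SE 0.11, antisense overlap). NTS, neurotensin, fell from 9.56 ± 0.329 to 0.516 ± 0.168 CPM (log2 fold change -4.20, SE 0.14). GRP, gastrin-releasing peptide, rose from 70.9 ± 1.83 to 130.5 ± 2.61 CPM (log2 fold change 0.88, SE 0.03). CPE, a prohormone-processing enzyme, rose from 8.19 ± 0.547 to 52.5 ± 1.51 CPM (log2 fold change 2.68, SE 0.05). NPY1R and CPE lie on chromosome 4 in regions with medians of 0.69 and 0.73, so NPY1R fell against its region and CPE rose within one that was higher.

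Protocadherins, the cadherin-like adhesion proteins of neural cells, were lower almost throughout. Of 54 tested, 3 were called higher, 46 lower and 5 in neither direction, with a median of -1.88 and 44 at least 2-fold lower. The median was -1.26 with at least 10 counts in every library and -0.72 on the filtered log2(FPKM + 1) scale. Genes of the alpha and gamma clusters on chromosome 5 share exons at their 3′ ends, so their reads are divided and their values are not independent. PCDHA10 of the alpha cluster fell from 10.2 ± 0.0904 to 1.07 ± 0.0852 CPM (log2 fold change -3.25, SE 0.12, shared reads, antisense overlap), where the region had a median of -0.39. The list's median was -1.50 after the chromosome medians were subtracted. PCDH17, a single-gene protocadherin, fell from 391 ± 9.83 to 172 ± 6.26 CPM (log2 fold change -1.19, SE 0.03, shared reads, antisense overlap). PCDH10 and PCDH7, also outside the clusters, both rose. PCDH10 went from 24.3 ± 0.618 to 111 ± 3.01 CPM (log2 fold change 2.19, SE 0.04). PCDH7 went from 104 ± 4.25 to 186 ± 1.17 CPM (log2 fold change 0.83, SE 0.03, antisense overlap). Of 19 classical and desmosomal cadherins and their partners, 6 were called higher, 12 lower and 1 in neither direction. CDH2, N-cadherin, had 27.1, 26.5 and 26.8 CPM in the RFP libraries and 0.344, 0.511 and 0.317 CPM in the ETS1-Low libraries (log2 fold change -6.07, SE 0.11, antisense overlap). CDH6 fell from 2.77 ± 0.415 to 0.025 ± 0.0266 CPM (114-fold lower, 95% counting interval 39.1 to 554, antisense overlap). CDH20 fell from 2.46 ± 0.214 to 0.0908 ± 0.0409 CPM (log2 fold change -4.74, SE 0.28). CTNND1, the cadherin-binding p120 catenin, rose from 135 ± 3.42 to 195 ± 6.55 CPM (log2 fold change 0.53, SE 0.03, shared reads). Of 16 regulators of epithelial-mesenchymal transition, 5 were called higher, 8 lower and 3 in neither direction. PRRX1, a mesenchymal homeobox factor, fell from 3.37 ± 0.279 to 0.0332 ± 0.0171 CPM (104-fold lower, 95% counting interval 40.8 to 383). TCF4, a bHLH factor, rose from 43 ± 2.07 to 77.2 ± 0.768 CPM (log2 fold change 0.84, SE 0.04, antisense overlap). KRT18, a simple epithelial keratin, rose from 78.3 ± 2.5 to 155 ± 4.73 CPM (log2 fold change 0.98, SE 0.03, antisense overlap).

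**Figure D3:**
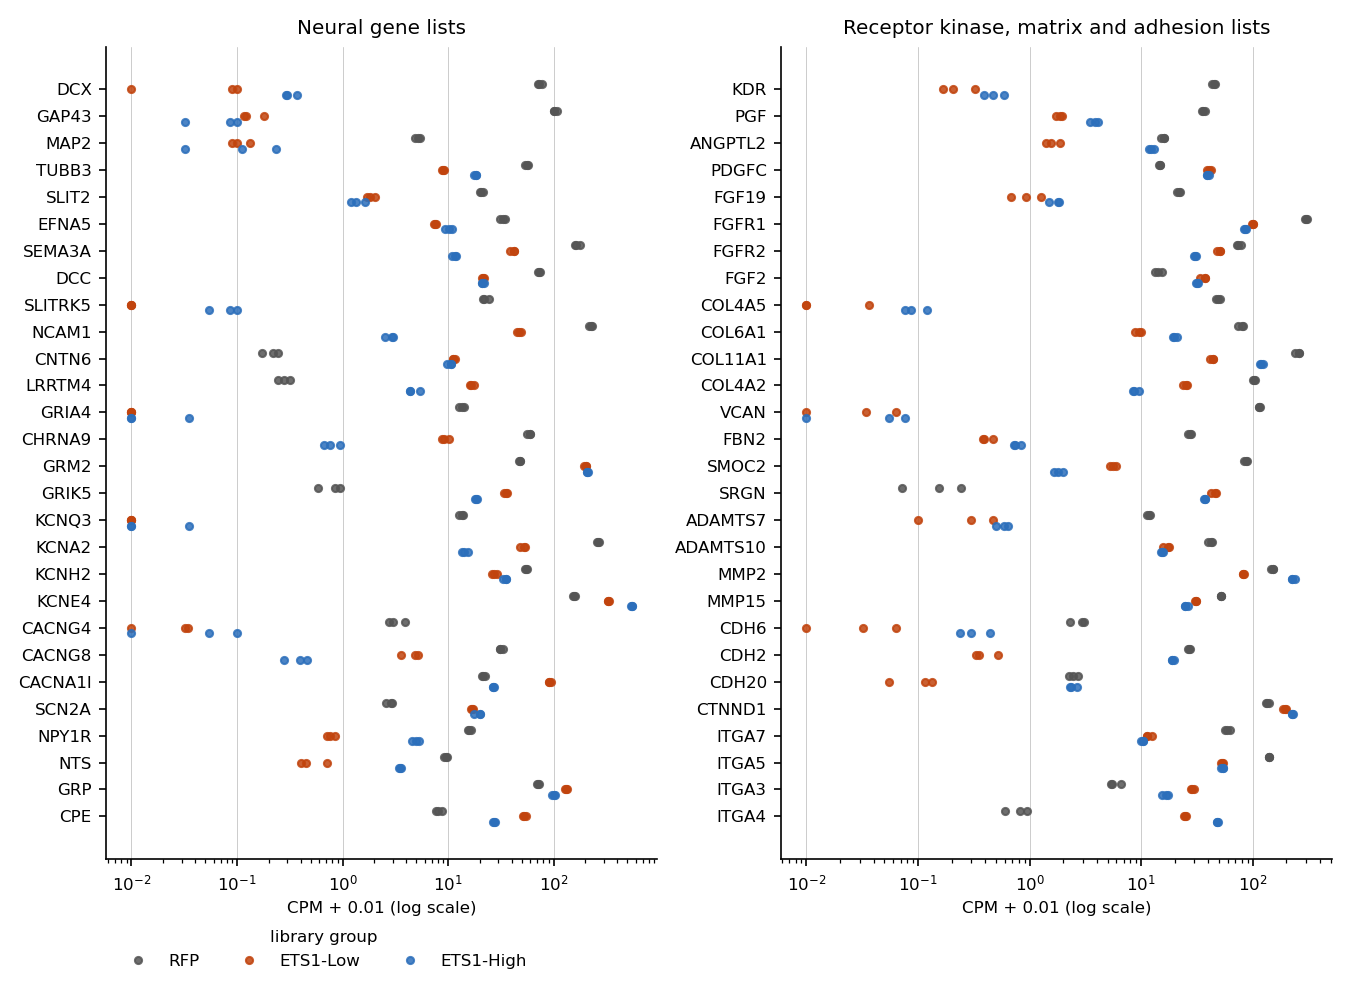
Level of the genes named from the neural lists (left) and from the receptor kinase, matrix and adhesion lists (right), as CPM + 0.01 on a log axis, with one point for each library of RFP, ETS1-Low and ETS1-High. The RFP and ETS1-Low libraries are separate in every gene shown, with falls such as DCX, KDR and VCAN to below 1 CPM beside rises such as GRM2 and ITGA4, and in CDH2 and CDH20 the ETS1-High libraries lie close to RFP.

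Genes of the extracellular matrix were lower in majority. Of 31 collagen genes, 7 were called higher, 20 lower and 4 in neither direction (median -1.34, -0.59 with at least 10 counts in every library, -0.56 on the filtered log2(FPKM + 1) scale), and 16 were at least 2-fold lower. COL11A1, a fibrillar collagen of cartilage, had 242, 259.7 and 259 CPM in the RFP libraries and 44, 43.8 and 41.4 CPM in the ETS1-Low libraries (log2 fold change -2.56, SE 0.04). COL4A2 of basement membranes fell from 103 ± 2.06 to 24.9 ± 1.21 CPM (log2 fold change -2.05, SE 0.04, antisense overlap). COL6A1, a beaded-filament collagen, fell from 78.5 ± 3.59 to 9.41 ± 0.62 CPM (log2 fold change -3.06, SE 0.05). COL3A1, a fibrillar collagen and fibroblast marker, rose from 176 ± 8.34 to 342 ± 1.37 CPM (log2 fold change 0.95, SE 0.03). Of 47 proteoglycan and matricellular genes, 10 were called higher, 29 lower and 8 in neither direction (median -0.67, -0.61 with at least 10 counts in every library, -0.37 on the filtered log2(FPKM + 1) scale). FBN2, fibrillin 2 of elastic fibres, fell from 27.1 ± 0.86 to 0.404 ± 0.052 CPM (log2 fold change -6.06, SE 0.11, antisense overlap). SMOC2, a matricellular calcium-binding protein, fell from 86.6 ± 2.57 to 5.58 ± 0.361 CPM (log2 fold change -3.95, SE 0.05). Of 28 metalloproteinases and inhibitors, 5 were called higher, 21 lower and 2 in neither direction (median -0.92, -0.58 with at least 10 counts in every library, -0.63 on the filtered log2(FPKM + 1) scale). ADAMTS7 fell from 11.6 ± 0.387 to 0.281 ± 0.188 CPM (log2 fold change -5.38, SE 0.18, shared reads). ADAMTS10, which acts on microfibrils, fell from 41.8 ± 1.68 to 16.9 ± 1.15 CPM (log2 fold change -1.31, SE 0.05). MMP2, gelatinase A, fell from 149 ± 3.6 to 82.7 ± 1.44 CPM (log2 fold change -0.85, SE 0.03, shared reads). MMP15, a membrane-type protease, fell from 51.9 ± 0.341 to 30.8 ± 0.473 CPM (log2 fold change -0.75, SE 0.04).

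Integrins and the proteins that link them to actin were mixed. Of 19 integrin subunits, 6 were called higher, 10 lower and 3 in neither direction (median -0.12). ITGA4, which binds VCAM1 and fibronectin, had 0.935, 0.811 and 0.594 CPM in the RFP libraries and 25.4, 24.7 and 24.2 CPM in the ETS1-Low libraries (log2 fold change 4.99, SE 0.09, antisense overlap). ITGA3, a laminin receptor, rose from 5.79 ± 0.642 to 28.7 ± 0.746 CPM (log2 fold change 2.31, SE 0.07). ITGA5, the fibronectin receptor, had 140.5, 139 and 140.3 CPM in the RFP libraries and 53.9, 52.5 and 52.4 CPM in the ETS1-Low libraries (log2 fold change -1.40, SE 0.03, antisense overlap). ITGA7, another laminin receptor, fell from 59.3 ± 2.87 to 11.7 ± 0.677 CPM (log2 fold change -2.34, SE 0.05, antisense overlap). Subunits for fibronectin and for laminin thus stood on both sides. Of 22 laminins and basement membrane genes, 8 were called higher, 10 lower and 4 in neither direction. LAMB1, a laminin beta chain, rose from 144 ± 1.9 to 299 ± 5.22 CPM (log2 fold change 1.05, SE 0.03, antisense overlap). NID2, nidogen 2, rose from 14.4 ± 0.796 to 60.5 ± 3.42 CPM (log2 fold change 2.07, SE 0.05, antisense overlap). Of 59 focal adhesion and actin linker genes, 29 were called higher, 23 lower and 7 in neither direction (median 0.15). LIMA1, an actin-bundling LIM protein, rose from 82.5 ± 1.22 to 287 ± 3.51 CPM (log2 fold change 1.80, SE 0.03). FERMT1, kindlin 1, which activates integrins, rose from 2.2 ± 0.262 to 34.6 ± 1.81 CPM (log2 fold change 3.97, SE 0.07). LMO7 rose from 10.3 ± 0.369 to 38.7 ± 1.61 CPM (log2 fold change 1.91, SE 0.05, shared reads, antisense overlap).

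Receptor tyrosine kinases of the VEGF, PDGF, KIT and TIE families with their ligands were lower as a group. Of 23 tested, 5 were called higher, 17 lower and 1 in neither direction (median -2.21, -1.03 with at least 10 counts in every library, -0.89 on the filtered log2(FPKM + 1) scale). KDR, the main VEGF receptor, had 45.6, 45 and 43.5 CPM in the RFP libraries and 0.159, 0.311 and 0.195 CPM in the ETS1-Low libraries (log2 fold change -7.61, SE 0.11). TEK, the angiopoietin receptor, fell from 0.766 ± 0.10 to 0.0378 ± 0.046 CPM (log2 fold change -4.16, SE 0.51). The PDGF receptors PDGFRA and PDGFRB both fell. PDGFRA went from 12.8 ± 0.463 to 3.72 ± 0.356 CPM (log2 fold change -1.77, SE 0.09). PDGFRB went from 74.2 ± 4.6 to 20.5 ± 1.25 CPM (log2 fold change -1.85, SE 0.05). Among the ligands, PGF, placental growth factor, fell from 36.1 ± 0.849 to 1.84 ± 0.124 CPM (log2 fold change -4.29, SE 0.08). ANGPTL2 fell from 15.7 ± 0.574 to 1.6 ± 0.25 CPM (log2 fold change -3.30, SE 0.09). VEGFA fell from 131 ± 2.19 to 74 ± 0.437 CPM (log2 fold change -0.82, SE 0.03, antisense overlap). PDGFC rose from 14.6 ± 0.187 to 40.4 ± 1.62 CPM (log2 fold change 1.47, SE 0.05). KDR and TEK are also endothelial markers, of which 7 were tested, 2 called higher and 3 lower. Another, PECAM1, rose from 1.7 ± 0.116 to 3.69 ± 0.228 CPM (log2 fold change 1.11, SE 0.13), but was not called on any of the 3 FPKM scales, where its libraries overlapped between the groups. The PDGF receptors are also fibroblast markers, as is THY1, which fell from 75.7 ± 2.28 to 5.07 ± 0.0576 CPM (log2 fold change -3.90, SE 0.05, antisense overlap). Of 9 fibroblast markers, 2 were called higher, 5 lower and 2 in neither direction. The higher ones were COL3A1 and S100A4, the latter (log2 fold change 0.88) named after its value was seen. The summed level of all 12 markers per length was 135 to 138 FPKM in RFP and 99.1 to 104 FPKM in ETS1-Low, whereas the tested ones summed to 385 CPM in RFP and 410.4 CPM in ETS1-Low, so the direction depends on the scale. Endothelial markers summed to 42.4 to 42.6 FPKM in RFP and 23.8 to 26.9 FPKM in ETS1-Low. The part of both cell types in these results was not tested. Of 28 genes of FGF signalling and its feedback, 6 were called higher, 19 lower and 3 in neither direction (median -0.43). FGFR1 had 297, 306 and 298 CPM in the RFP libraries and 98.2, 101 and 101 CPM in the ETS1-Low libraries (log2 fold change -1.58, SE 0.03, antisense overlap). FGFR2 fell from 75.2 ± 3.61 to 49.9 ± 1.56 CPM (log2 fold change -0.59, SE 0.04). The endocrine ligand FGF19 fell from 21.7 ± 0.882 to 0.946 ± 0.29 CPM (log2 fold change -4.53, SE 0.11). FGF2, a ligand without a secretion signal, rose from 14.2 ± 0.988 to 36.1 ± 2.06 CPM (log2 fold change 1.34, SE 0.05, antisense overlap).

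The IGF axis, a growth signal on which Ewing sarcoma cells are known to rely, was higher in a majority of genes. Of 22 tested genes, 14 were called higher, 8 lower and 0 in neither direction (median 0.29, or 0.17 on the filtered log2(FPKM + 1) scale). IGF1R, the receptor, had 100.5, 100.4 and 103 CPM in the RFP libraries and 235, 235 and 244 CPM in the ETS1-Low libraries (log2 fold change 1.23, SE 0.03). The adaptor IRS2 fell from 36 ± 1.33 to 18.6 ± 0.315 CPM (log2 fold change -0.96, SE 0.04, antisense overlap). In TGF-beta and activin signalling, 12 of 26 genes were called higher and 12 lower. TGFB1, the ligand, rose from 73.8 ± 2.1 to 288 ± 4.9 CPM (log2 fold change 1.97, SE 0.03, shared reads, antisense overlap). TGFBR3, the co-receptor betaglycan, rose from 5.2 ± 0.0828 to 33 ± 1.15 CPM (log2 fold change 2.67, SE 0.06). The type I receptor TGFBR1 fell from 87.9 ± 1.62 to 17.8 ± 0.981 CPM (log2 fold change -2.31, SE 0.04), on chromosome 9 where the regional median was -0.56. For BMP, of 29 genes 16 were called higher, 11 lower and 2 in neither direction (median 0.43, or 0.35 on the log2(FPKM + 1) scale). The target genes ID3 and ATOH8 both rose. ID3 went from 28.6 ± 1.53 to 131 ± 0.973 CPM (log2 fold change 2.19, SE 0.04). ATOH8 went from 0.592 ± 0.0424 to 6.75 ± 0.19 CPM (log2 fold change 3.51, SE 0.12). The ligand BMP2 fell from 7.58 ± 0.486 to 0.242 ± 0.0829 CPM (log2 fold change -4.95, SE 0.18). The antagonist GREM1 rose from 13 ± 0.759 to 75 ± 0.916 CPM (log2 fold change 2.53, SE 0.05, antisense overlap).

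Developmental pathways were mixed. For Wnt, 15 of 42 genes were called higher and 20 lower. The Frizzled receptors were split, with FZD1, FZD4, FZD5 and FZD6 called higher and FZD2, FZD3, FZD7 and FZD8 lower. All but FZD1, FZD4 and FZD6 were added here after their values were seen, with log2 fold changes of 0.40 for FZD5 and from -0.97 (FZD8) to -0.37 (FZD7) for the lower ones. FZD1 went from 66.1 ± 3.55 to 192 ± 3.53 CPM (log2 fold change 1.54, SE 0.03). FZD4 went from 15.6 ± 0.83 to 102 ± 1.7 CPM (log2 fold change 2.7, SE 0.04, antisense overlap). FZD6 went from 11.2 ± 0.616 to 37.5 ± 1.2 CPM (log2 fold change 1.75, SE 0.05, antisense overlap). ROR2, a receptor for WNT5A, fell from 14.7 ± 0.774 to 0.232 ± 0.0422 CPM (log2 fold change -5.95, SE 0.15). For Notch, 8 of 29 were higher and 17 lower (median -0.48, -0.17 with at least 10 counts in every library, -0.20 on the filtered log2(FPKM + 1) scale). The receptor NOTCH1 fell from 151 ± 1.89 to 68.3 ± 1.23 CPM (log2 fold change -1.15, SE 0.03) with its region of chromosome 9 at -0.56. The ligand JAG2 rose from 7.78 ± 0.609 to 35.8 ± 1.18 CPM (log2 fold change 2.20, SE 0.06). The target HEY1 rose from 10.3 ± 0.154 to 33 ± 1.61 CPM (log2 fold change 1.69, SE 0.05). DTX4, a ubiquitin ligase of the pathway, fell from 8.56 ± 0.191 to 1.25 ± 0.218 CPM (log2 fold change -2.76, SE 0.12, antisense overlap). For Hedgehog, 5 of 16 were higher and 9 lower. The ligand SHH rose from 5.31 ± 0.284 to 25.2 ± 1.48 CPM (log2 fold change 2.24, SE 0.06). Its co-receptor GAS1 rose from 12.7 ± 0.733 to 29.7 ± 0.435 CPM (log2 fold change 1.22, SE 0.05). HHAT, which palmitoylates the ligand, fell from 4.96 ± 0.191 to 0.735 ± 0.145 CPM (log2 fold change -2.76, SE 0.16, antisense overlap). The effector GLI3 fell from 70 ± 0.834 to 46.8 ± 1.48 CPM (log2 fold change -0.58, SE 0.04). Among 36 YAP, TAZ and TEAD genes and targets, 14 were called higher, 16 lower and 6 in neither direction. MYOF, a membrane repair protein, had 40, 40.8 and 41.4 CPM in the RFP libraries and 282, 279 and 282 CPM in the ETS1-Low libraries (log2 fold change 2.79, SE 0.03). F3, tissue factor, rose from 5.31 ± 0.474 to 36.1 ± 0.387 CPM (log2 fold change 2.77, SE 0.06, shared reads). CCN1, a matricellular target, rose from 28.8 ± 0.70 to 84.5 ± 4.88 CPM (log2 fold change 1.55, SE 0.04). NT5E, the ectonucleotidase CD73, fell from 106 ± 1.96 to 31.1 ± 0.345 CPM (log2 fold change -1.76, SE 0.04). For lysophosphatidic acid, ENPP2, the enzyme autotaxin that makes it, rose from 0.188 ± 0.0197 to 7.93 ± 0.422 CPM (log2 fold change 5.38, SE 0.14). The receptors LPAR1 and LPAR4 for this lipid both fell. LPAR1 went from 1.72 ± 0.0382 to 0.0732 ± 0.0846 CPM (log2 fold change -4.51, SE 0.36). LPAR4 went from 2.61 ± 0.118 to 0.639 ± 0.138 CPM (log2 fold change -2.01, SE 0.19).

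Transcription factors of development changed strongly in single genes. Of 11 SOX genes, 3 were called higher, 7 lower and 1 in neither direction. SOX11, a factor of neural progenitors, had 124, 118 and 121 CPM in the RFP libraries and 26.3, 25.1 and 25.3 CPM in the ETS1-Low libraries (log2 fold change -2.24, SE 0.04). SOX3 fell from 10.3 ± 0.399 to 0.00882 ± 0.0153 CPM (1273-fold lower, 95% counting interval 229 to 50296). SOX6 rose from 64.1 ± 0.444 to 122 ± 6.02 CPM (log2 fold change 0.92, SE 0.03). Of 26 HOX genes, 8 were called higher, 10 lower and 8 in neither direction, and the HOXB genes named both fell. HOXB8 went from 18.7 ± 0.663 to 3.04 ± 0.0346 CPM (log2 fold change -2.62, SE 0.08). HOXB9 went from 13.3 ± 0.198 to 4.73 ± 0.254 CPM (log2 fold change -1.50, SE 0.08). HOXC13 fell from 19.8 ± 0.239 to 8.07 ± 0.614 CPM (log2 fold change -1.30, SE 0.07, antisense overlap). HOXD8 rose from 20.9 ± 0.922 to 36.2 ± 0.368 CPM (log2 fold change 0.79, SE 0.05, antisense overlap). Of 46 neural crest and homeobox factors, 21 were called higher, 21 lower and 4 in neither direction. EYA4 fell from 86.5 ± 4.69 to 18.1 ± 0.471 CPM (log2 fold change -2.26, SE 0.04, antisense overlap). LHX9 fell from 13.6 ± 0.472 to 0.236 ± 0.0728 CPM (log2 fold change -5.84, SE 0.14). TFAP2A, a neural crest regulator, rose from 14.6 ± 0.913 to 56.5 ± 1.09 CPM (log2 fold change 1.95, SE 0.04, antisense overlap). TBX3 rose from 40.3 ± 1.53 to 93.5 ± 1.34 CPM (log2 fold change 1.21, SE 0.04, antisense overlap). Of 20 genes of the LIN28 and let-7 axis, 7 were called higher, 11 lower and 2 in neither direction. The 7 higher ones were E2F2, ARID3B, IGF2BP1, IGF2BP3, HMGA1, NRAS and LIN28B, named after their values were seen. Of these, 0 were at least 2-fold higher. The genes described next are all falls. LIN28A, which blocks maturation of let-7 microRNAs, fell from 23.8 ± 1.33 to 0.00814 ± 0.0141 CPM (2941-fold lower, 95% counting interval 528 to 116180.0). HMGA2 and MYCN, mRNAs that let-7 is known to target, both fell. HMGA2 went from 95.7 ± 2.5 to 25.3 ± 1.47 CPM (log2 fold change -1.92, SE 0.04, antisense overlap). MYCN went from 17.8 ± 0.29 to 1.18 ± 0.375 CPM (log2 fold change -3.92, SE 0.11, antisense overlap). PLAGL1, an imprinted zinc finger gene, fell from 14.3 ± 1.06 to 0.0466 ± 0.0405 CPM (295-fold lower, 95% counting interval 136 to 805, antisense overlap). Among 471 C2H2 zinc finger genes, 173 were called higher, 179 lower and 119 in neither direction. ZNF423, a partner of SMAD proteins, fell from 40.2 ± 2.34 to 1.09 ± 0.155 CPM (log2 fold change -5.21, SE 0.09).

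Cell cycle genes shifted little and their call depends on the scale. Of 51 replication genes, 33 were called higher, 12 lower and 6 in neither direction (median 0.18), against 23 higher and 15 lower of 51 on the log2(FPKM + 1) scale with a median of 0.02. Of 55 spindle and kinetochore genes, 36 were called higher, 12 lower and 7 in neither direction (median 0.17), against 23 higher and 14 lower of 55 with a median of 0.03. The named rises included enzymes of nucleotide supply. RRM2 of ribonucleotide reductase had 214, 208 and 207 CPM in the RFP libraries and 507, 481 and 485 CPM in the ETS1-Low libraries (log2 fold change 1.23, SE 0.03, shared reads). TK1, thymidine kinase, rose from 47.9 ± 0.385 to 125 ± 2.62 CPM (log2 fold change 1.38, SE 0.03). TYMS, thymidylate synthase, rose from 82.5 ± 2.92 to 199 ± 3.01 CPM (log2 fold change 1.27, SE 0.03, antisense overlap). LIG1, the replicative DNA ligase, rose from 91.9 ± 2.59 to 189 ± 2.72 CPM (log2 fold change 1.04, SE 0.03, antisense overlap). CENPU of the kinetochore rose from 26.3 ± 0.81 to 59.8 ± 1.86 CPM (log2 fold change 1.19, SE 0.04, antisense overlap). The p53 list was mixed (15 higher and 14 lower of 36), although the known p53 targets PERP, FDXR and PHLDA3 rose. PERP went from 22 ± 0.34 to 80 ± 1.76 CPM (log2 fold change 1.86, SE 0.04). FDXR went from 17.9 ± 0.166 to 57.3 ± 1.77 CPM (log2 fold change 1.68, SE 0.04). PHLDA3 went from 4.78 ± 0.267 to 17.6 ± 1.06 CPM (log2 fold change 1.88, SE 0.07). PMAIP1, the pro-apoptotic protein NOXA, rose from 24.9 ± 1.22 to 50.1 ± 0.946 CPM (log2 fold change 1.01, SE 0.04). Of 32 Schlafen, PARP and DNA damage genes, 18 were called higher, 13 lower and 1 in neither direction. SLFN12 fell from 31.7 ± 0.853 to 4.24 ± 0.108 CPM (log2 fold change -2.90, SE 0.07). SLFN12L rose from 1.86 ± 0.128 to 14.1 ± 0.833 CPM (log2 fold change 2.92, SE 0.09, antisense overlap). TOP1, topoisomerase 1, fell from 214 ± 9.98 to 150.4 ± 3.37 CPM (log2 fold change -0.51, SE 0.03, antisense overlap). Polycomb and LSD1 genes were mixed (20 higher and 15 lower of 40). JARID2, a PRC2 cofactor, fell from 91 ± 2.22 to 35.7 ± 1.11 CPM (log2 fold change -1.35, SE 0.04).

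Among metabolic genes, those of glutathione and NRF2-linked defence were higher in majority. Of 40 tested, 28 were called higher, 7 lower and 5 in neither direction (median 0.44, or 0.33 on the log2(FPKM + 1) scale). SLC7A11, the cystine importer, had 229.9, 214 and 213 CPM in the RFP libraries and 618, 610.1 and 613 CPM in the ETS1-Low libraries (log2 fold change 1.49, SE 0.03, shared reads, antisense overlap). GSTM4, a glutathione transferase activated by EWSR1::FLI1, rose from 62.7 ± 1.79 to 274 ± 0.735 CPM (log2 fold change 2.13, SE 0.03, shared reads). MGST3, a microsomal transferase, fell from 129.7 ± 0.943 to 28.3 ± 0.603 CPM (log2 fold change -2.19, SE 0.04). CRABP1, a retinoic acid carrier, rose from 7.28 ± 0.692 to 216 ± 4.51 CPM (log2 fold change 4.89, SE 0.05, antisense overlap). STRA6, the retinol importer, rose from 14.8 ± 0.495 to 39.3 ± 0.619 CPM (log2 fold change 1.41, SE 0.05, antisense overlap). In the list of fatty acid synthesis and binding that holds them, further retinoid genes were split. ALDH1A3 (log2 fold change 1.57) was called higher. CRABP2 (-1.78) was called lower, as was ALDH1A2, with 2 counts in the ETS1-Low group and a level 29.7-fold lower (95% counting interval 8.22 to 245). These 3 genes were chosen after their values were seen. In cholesterol synthesis, 12 of 27 were higher and 13 lower. The early enzyme HMGCS1 fell from 132 ± 4.84 to 59.1 ± 0.559 CPM (log2 fold change -1.16, SE 0.03, antisense overlap). It lies on chromosome 5, where the regional median was -0.43. ASNS, asparagine synthetase, fell from 130.4 ± 4.94 to 57 ± 2.1 CPM (log2 fold change -1.19, SE 0.03, shared reads). ALDH1L1 of folate metabolism rose from 3.74 ± 0.384 to 26.9 ± 1.15 CPM (log2 fold change 2.85, SE 0.07, antisense overlap). In glycolysis, the phosphofructokinase PFKP rose from 108 ± 2.52 to 241 ± 3.63 CPM (log2 fold change 1.16, SE 0.03, shared reads). The glucose transporter SLC2A3 fell from 72.3 ± 0.994 to 20.7 ± 0.772 CPM (log2 fold change -1.80, SE 0.04, shared reads). The carbonic anhydrase CA12 rose from 6.98 ± 0.222 to 69.7 ± 2.27 CPM (log2 fold change 3.32, SE 0.05). Of the GALNT family beyond GALNT5, GALNT3 rose from 2.92 ± 0.355 to 32.1 ± 1.98 CPM (log2 fold change 3.45, SE 0.07). GALNT13 and GALNT12 both fell. GALNT13 went from 15.5 ± 0.351 to 0.227 ± 0.0592 CPM (log2 fold change -6.08, SE 0.15). GALNT12 went from 10.2 ± 0.522 to 1.04 ± 0.111 CPM (log2 fold change -3.29, SE 0.12, antisense overlap).

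The translation and respiration machinery moved by small amounts. Of 84 cytosolic ribosomal protein genes, 53 were called higher, 16 lower and 15 in neither direction (median 0.21), against a median of 0.06 on the log2(FPKM + 1) scale. Many have processed copies elsewhere in the genome. RPL13A rose from 1407 ± 17 to 2437 ± 28.5 CPM (log2 fold change 0.79, SE 0.03, shared reads). RPLP1 rose from 857 ± 25.7 to 1409 ± 69.5 CPM (log2 fold change 0.72, SE 0.03, shared reads). Nuclear genes of the respiratory chain were called higher in 42 and lower in 24 of 77 (median 0.15, or -0.03 on the log2(FPKM + 1) scale, where the sign turns). Of 13 mitochondrially encoded mRNAs, 11 were called higher, 0 lower and 2 in neither direction (median 0.34, or 0.20 on that scale), and MT-ND2 rose from 2462 ± 85.3 to 3438 ± 138 CPM (log2 fold change 0.48, SE 0.05, shared reads). The groups also differed in the share of counts from mitochondrial genes given above. HSPB8, a small heat shock protein, rose from 0.616 ± 0.225 to 7.63 ± 0.0408 CPM (log2 fold change 3.62, SE 0.13, antisense overlap). HSP90AA1 fell from 2435 ± 109 to 1607 ± 30.3 CPM (log2 fold change -0.60, SE 0.03, shared reads, antisense overlap). The cathepsin CTSC rose from 10.9 ± 0.471 to 69.8 ± 1.63 CPM (log2 fold change 2.68, SE 0.05). CTSL fell from 86 ± 1.47 to 36 ± 2.13 CPM (log2 fold change -1.26, SE 0.04).

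**Figure D4:**
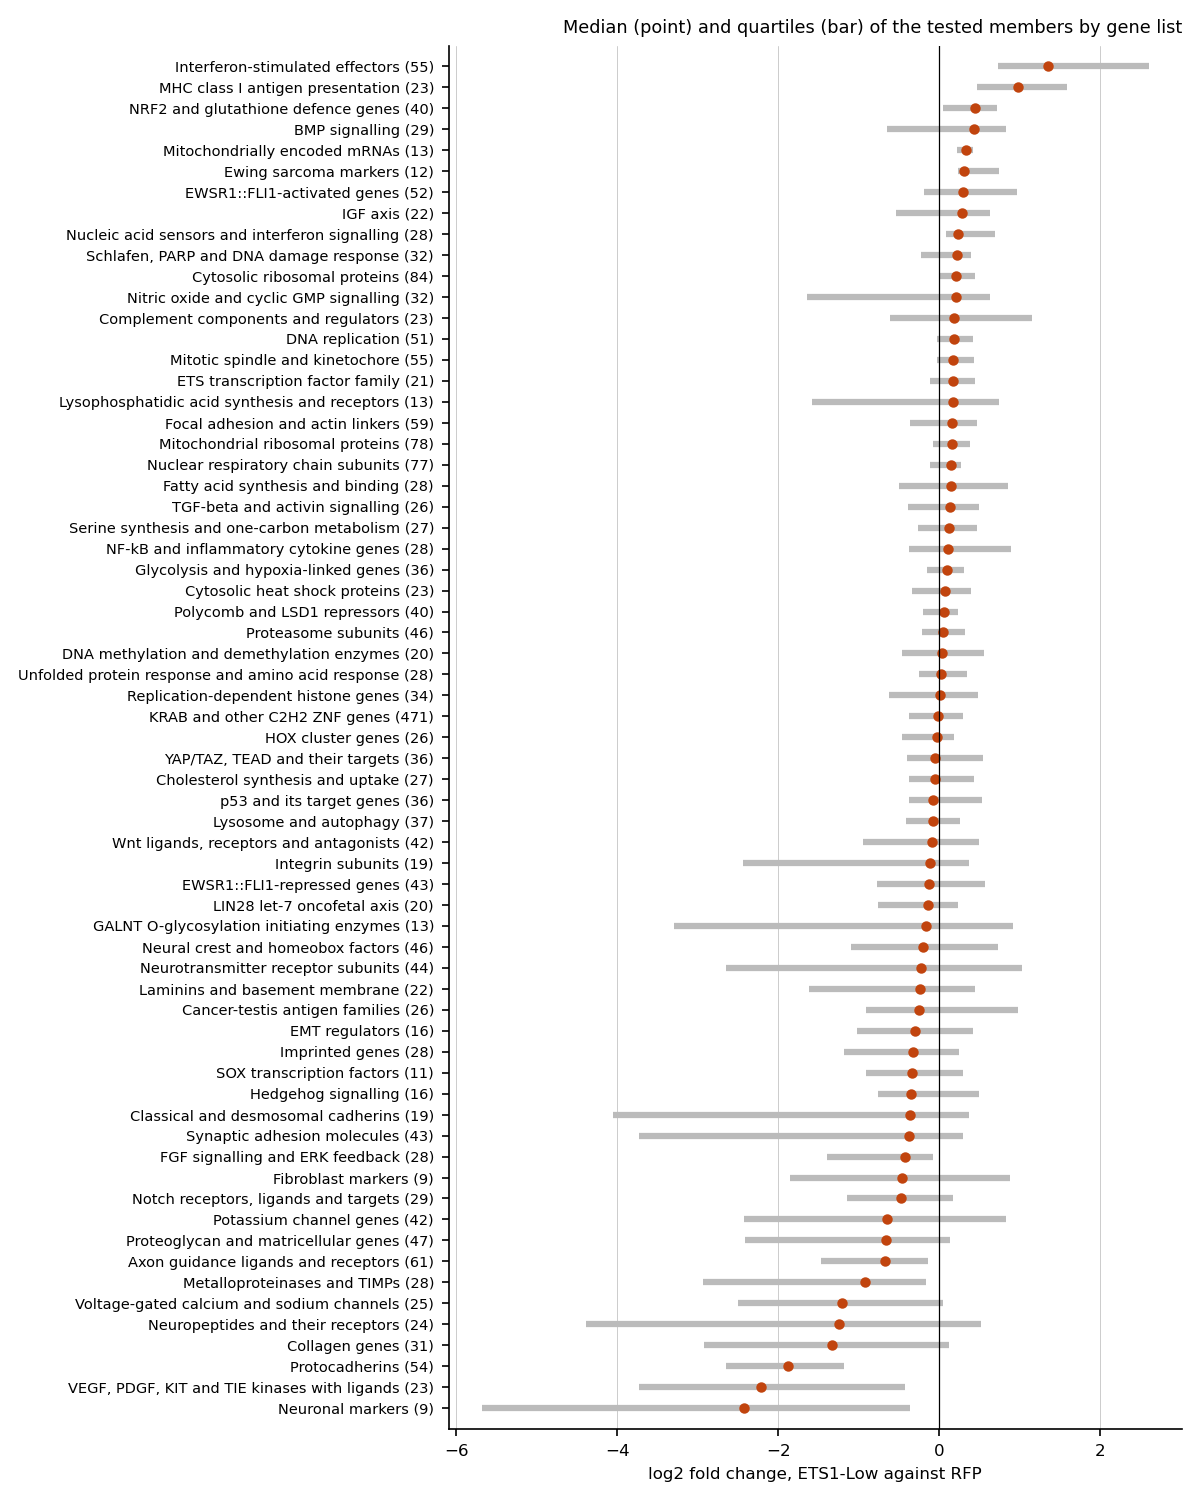
Median (point) and quartiles (bar) of the log2 fold change in ETS1-Low against RFP for the 65 lists with at least 9 tested members, whose number follows the name. Interferon-stimulated effectors and MHC class I genes have the highest medians (1.35 and 0.98), and neuronal markers, the VEGF, PDGF, KIT and TIE group and protocadherins the lowest (-2.43, -2.21 and -1.88).

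Some genes set ETS1-Low apart from both RFP and ETS1-High, and the contrast with ETS1-High was tested in the same fit, where 10196 of 17235 genes (59.2%) were called. The genes named here were picked by these contrasts, so their differences are a description. The highest against both groups were NOS1, NRK, ENSG00000273189, FLT3LG and TGM3. FLT3LG had 1.51, 1.95 and 1.58 CPM in the RFP libraries and 168, 178 and 169.7 CPM in the ETS1-Low libraries. ETS1-High had 4.26, 4.43 and 3.79 CPM, a log2 difference of 5.37 between the ETS1 groups (SE 0.05). For NOS1 that difference was 5.87 (SE 0.08), and for NRK 5.92 (SE 0.17). The genes lowest against both were ZNF804A, PRKAA2, GABRA2, PIEZO2 and CDH2. PRKAA2, the alpha 2 catalytic subunit of AMP-activated kinase, had 11.9, 14 and 12.7 CPM in the RFP libraries and 0.132, 0.245 and 0.171 CPM in the ETS1-Low libraries. ETS1-High had 16.4, 13.8 and 15.4 CPM (difference -6.33, SE 0.15). PIEZO2, a mechanically gated channel, had 18.7, 19.5 and 19.8 CPM in the RFP libraries and 0.317, 0.311 and 0.122 CPM in the ETS1-Low libraries. ETS1-High had 14.4, 14.1 and 13.8 CPM (difference -5.80, SE 0.14). GABRA2, a GABA-A receptor subunit, fell from 9.71 ± 1.33 to 0.174 ± 0.0465 CPM (log2 fold change -5.82, SE 0.17, antisense overlap) and had 13.4 ± 0.83 CPM in ETS1-High. CDH2 had 19.3 ± 0.45 CPM in ETS1-High (difference -5.60, SE 0.11). The rule put ETS1-Low at the extreme in these genes, whereas ETS1 itself was highest in ETS1-High. Their order across the 3 groups was thus fixed by the choice and says nothing on the level of ETS1.

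Fold changes also differed by chromosome. Over the 12583 genes whose mean log2 CPM exceeded 1, the median was 0.05, but it was -0.54 on chromosome 9, where 412 of 497 genes were called lower. It was -0.40 on chromosome 5 and -0.21 on chromosome X. The highest medians were 0.36 on chromosome 11, 0.32 on chromosome 2 and 0.31 on chromosome 19. Of 153 windows of 20 Mb, 20 had a median below -0.25 and 30 above 0.25, from -0.62 between 80000001 and 100000000 of chromosome 9 to 0.71 between 160000001 and 180000000 of chromosome 4. Copy number was not measured, and its part in these medians was not tested. With the chromosome medians subtracted, the list medians became 1.22 for interferon-stimulated effectors, 1.07 for MHC class I, -2.13 for the VEGF, PDGF, KIT and TIE group and -2.60 for neuronal markers. The median of the collagens moved more, from -1.34 to -0.83, as did that of the protocadherins, given above. That of the endothelial markers changed sign, from -0.28 to 0.20.

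**Figure D5:**
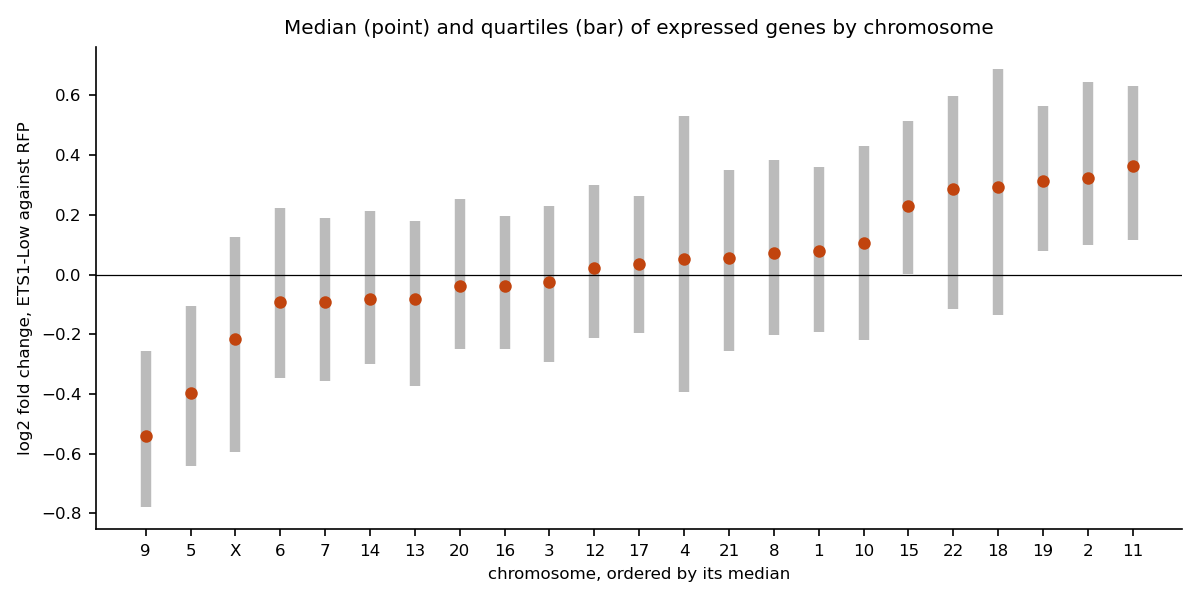
Median (point) and quartiles (bar) of the log2 fold change in ETS1-Low against RFP over genes whose mean log2 CPM exceeded 1, by chromosome, ordered by the median. Chromosomes 9, 5 and X lie lowest (-0.54, -0.40 and -0.21) and chromosomes 11, 2 and 19 highest (0.36, 0.32 and 0.31).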

How the data were processed

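The mRNA of 9 TC-32 libraries (Illumina Stranded mRNA Prep from total RNA, per the labels' protocols) was sequenced. The deposited expected counts and FPKM values per gene were made with RSEM, per the file headers, for 58381 genes, of which 26816 were 0 in every library. The submitters' processing notes list GRCh38 (hg38), cutadapt 4.4, STAR 2.7.3, featureCounts, Subread 2.0.3 and limma 3.38.3, without roles. The use of strand and the annotation release are not given in the sources used here. By library, between 9.00% and 10.3% of all 58381 genes, those without a count included, had an expected count that was not whole. Genes with a count numbered 22459 to 24559 per library. The 45 rows of the pseudoautosomal regions of chromosome Y held 0.0693% of the counts.

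Expected counts were rounded and all 9 libraries fitted together by group with edgeR 4.0.16 (R 4.3.3): filterByExpr, TMM scaling, robust glmQLFit, glmQLFTest, and Benjamini-Hochberg adjustment over the 17235 genes kept, with a threshold of 0.05. The totals of 39484704 to 46654734 counts in the libraries compared limit the precision of genes with few counts. Library pairs of a group differed by 2.66 to 5.19 chi-square units per gene, above sampling noise, so none was treated as a repeat deposit of another. FPKM values, which are per length, were tested on a log2 scale with limma 3.58.1, and DESeq2 1.42.0 served as an alternative test. Gene positions came from GENCODE v44 by identifier (99.2% of tested genes), and promoter sequences from RefSeq on GRCh38.p14 by symbol (11150 of 13896 protein-coding tested symbols).

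Besides ETS1, NOS1, FLI1 and EWSR1, the naming rule took the 15 largest rises and 15 largest falls among called genes that averaged 100 counts or more and whose groups did not overlap. It also took the 10 most abundant genes changed at least 2-fold, the 5 highest and 5 lowest against both other groups, and up to 4 called genes per list. Some genes it took are not reported here. The members, the 70 gene lists (3108 measured symbols, 135 of them in more than 1 list) and the rule were chosen with earlier results of these data known. The alternatives were other scalings, filters, units and thresholds, a replicate block, a fit of the 6 libraries alone, and leaving out each library.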

Additional observations from a re-analysis of the deposited data

Results flagged for a closer look

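In 2 named genes, ETS1-Low and ETS1-High moved in opposite directions from RFP, both by at least 2-fold. GREM1, a secreted BMP antagonist, had 13.8, 12.9 and 12.3 CPM in the RFP libraries and 74.5, 74.5 and 76.1 CPM in the ETS1-Low libraries. ETS1-High had 4.34, 4.4 and 3.94 CPM. It was called higher in ETS1-Low (log2 fold change 2.53) and lower in ETS1-High (-1.62, edgeR adjusted p 3.78e-27). The log2 difference of ETS1-Low minus ETS1-High was 4.149 (SE 0.06, edgeR adjusted p 1.41e-47), and the 3 groups did not overlap. ZNF804A, a zinc finger gene expressed in brain, had 0.79, 0.981 and 0.861 CPM in the RFP libraries and 0.0264, 0 and 0 CPM in the ETS1-Low libraries. ETS1-High had 5.56, 6.72 and 5.64 CPM. The log2 difference of ETS1-Low minus ETS1-High was -9.097 (SE 0.34, edgeR adjusted p 1.43e-28), a fitted value that depends on the prior count because ETS1-Low is near 0. An effect of the ETS1 level and a property of the clones cannot be told apart.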

How the results depend on the processing

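The number of genes called, 12773, lay between 9559 and 13437 over all alternatives, and between 12401 and 12488 without each library in turn. Calls of at least 2-fold numbered 3555, against 1985 with at least 10 counts in every library, a filter that removes genes absent in a group. They numbered 1696 on log2(FPKM + 0.1), 1201 on log2(FPKM + 1) and 1361 on that scale without a filter, where the pseudocount shrinks low genes. At 1.5-fold there were 5882 and at 4-fold 1588, and without each library between 3629 and 3708. Lists with a median beyond 0.5 in size numbered 14, against 2 on log2(FPKM + 1) and 23 in counts, each without a filter. Chromosomes with a median beyond 0.25 numbered 7, against 3 on each of the 3 FPKM scales. The cause of that change was not tested. ETS1 was 2.33 to 2.46 without each library and 1.25 on log2(FPKM + 1), with every alternative past the threshold. NOS1 was 11.2 to 12.06 without each library and 2.46 on log2(FPKM + 1). It is not in the fit that requires 10 counts in every library. Under the alternatives, 4490 values were compared for the named genes other than ETS1 and NOS1. They include, for each alternative with that contrast, the number of named genes called against ETS1-High. Of the 4490, 4487 kept their direction and call or, for these numbers, stayed within 1.5-fold. On the FPKM scales 3 values lost the call (all of PECAM1), and 0 changed sign. The median of a list changed sign in 78 combinations of list and alternative, over 28 of the 70 lists, and 8 of these lists had a median of at least 0.25 in size as reported. The 3 channel and transmitter receptor lists and the neural crest and homeobox factors turned from lower to higher under stricter filters. These were at least 10 counts in every library, or a mean of at least 1 FPKM over the 9 libraries. The filter on counts drops genes that are absent in a group. The filter on FPKM drops genes of low average level and keeps some that are nearly absent in a group, such as NOS1. The fit with the replicate block gave 12729 calls, 6523 higher and 6206 lower, and changed no call of the named genes in ETS1-Low against RFP. Deviations of libraries with the same number correlated by -0.026 to 0.024, and those with other numbers by -0.050 to 0.034. Not every library correlated best with its own number. Whether libraries of the same number share a culture or batch is not given in the sources used here. Leaving out a library leaves 2 in its group. Few counts in many genes limit these data, and the parts of clonal origin and copy number were not tested.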

Other observations

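Imprinted genes, which are expressed from a single parental copy, were lower in majority. Of 28 tested, 10 were called higher, 17 lower and 1 in neither direction (median -0.32). MEG3, a maternally expressed long noncoding RNA, fell from 8.96 ± 0.885 to 1.67 ± 0.0939 CPM (log2 fold change -2.42, SE 0.12, antisense overlap). ZDBF2, a paternally expressed zinc finger gene, fell from 3.69 ± 0.165 to 0.376 ± 0.0877 CPM (log2 fold change -3.30, SE 0.20). SNRPN, a splicing protein of the Prader-Willi region, fell from 87.3 ± 2.42 to 46.8 ± 2.63 CPM (log2 fold change -0.90, SE 0.04, shared reads). Cancer-testis genes were mostly silent: of 106 measured, 80 stayed below the filter, 53 of them without a count in any library. Of the 26 tested, 6 were called higher, 10 lower and 10 in neither direction, and XAGE2 fell from 3.58 ± 0.304 to 0.00882 ± 0.0153 CPM (443-fold lower, 95% counting interval 79.5 to 17491). Replication-dependent histone genes, whose transcripts lack poly(A) tails and are poorly sampled by this kit, had 2 called higher and 8 lower of 34. H2AC6, an H2A gene, fell from 4.46 ± 0.026 to 1.73 ± 0.392 CPM (log2 fold change -1.37, SE 0.14).

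Among enzymes of DNA methylation and of cytidine deamination, 9 of 20 were called higher and 9 lower. The antiviral deaminases APOBEC3C and APOBEC3F both rose. APOBEC3C went from 20.8 ± 0.721 to 64 ± 1.88 CPM (log2 fold change 1.62, SE 0.04, shared reads). APOBEC3F went from 2.3 ± 0.48 to 9.52 ± 0.51 CPM (log2 fold change 2.05, SE 0.10, shared reads). Of 5 tested epithelial markers, 4 were called higher, 1 lower and 0 in neither direction. KRT8, the partner of KRT18, rose from 2.61 ± 0.407 to 6.38 ± 0.372 CPM (log2 fold change 1.29, SE 0.11, antisense overlap). KRT5, a basal keratin, rose from 0.0208 ± 0.0205 to 0.857 ± 0.263 CPM (41.1-fold higher, 95% counting interval 14.1 to 199). CLDN7, a tight junction protein, fell from 0.549 ± 0.157 to 0.0949 ± 0.0828 CPM (log2 fold change -2.47, SE 0.51, antisense overlap). By class, 80.2% of 13900 protein-coding genes were called, against 50.1% of 2012 long noncoding RNA genes and 45.6% of 934 pseudogenes, which have fewer counts.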
